A study of Drosophila melanogaster with 4 samples.

Results

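Glutathione transferases (Gst genes) and UDP-glycosyltransferases (Ugt genes) were followed in ovary follicle cells of Drosophila melanogaster whose EGF receptor had been activated. Members were all genes of the authors' deposited table whose symbol starts with Gst and a class letter, or with Ugt and a digit, and whose mean normalised count was above 0. This gave 38 of 15682 genes in the table, of which 12650 had a mean above 0. The 38 comprise 10 GstD, 10 GstE, 1 GstS and 17 Ugt genes. The Control group expressed a membrane-tethered GFP (UAS-CD8-GFP) alone, and the EGFR-activated group expressed UAS-EGFR-lambdatop, an activated receptor, together with the same GFP. Each group had 2 libraries, 4 in all. Flies of both groups were reared at 18 °C and moved as adults to 29 °C for 7 to 10 days. The sources used here name neither the driver of the transgenes nor the age of the flies beyond these days.

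Glutathione transferases join the tripeptide glutathione to reactive or lipophilic molecules, among them insecticides and products of lipid peroxidation, and some serve as enzymes of hormone, pigment or amino acid metabolism. Flies carry delta (GstD) and epsilon (GstE) classes that are expanded in insects, each largely in a single gene cluster, besides sigma (GstS), omega (GstO), theta (GstT) and zeta (GstZ) classes shared with other animals. Ugt enzymes are membrane proteins of the endoplasmic reticulum that attach a sugar from a UDP-sugar to small lipophilic molecules, which are then exported. Fat body, gut and Malpighian tubules are the tissues best known for both families. In many animals the stress-responsive factor Nrf2, named CncC in flies and encoded by cnc, controls genes of these families together with its inhibitor Keap1.

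Fold changes below compare EGFR-activated cells with Control, as log2 values with their standard errors (SE), and a gene is called higher or lower at an adjusted p under 0.05. These 3 values are taken for each gene from the authors' deposited table unless another scaling is named. Levels are mean normalised counts over all 4 libraries. Fold changes and their tests compare the groups, but no deposited level is tied to a library or a group, so no spread between replicates is given. Reads per library were recovered only for genes with low means, and these libraries were not matched to groups. The mean normalised counts summed to 21565892 over all genes. Egfr, the gene carried by the transgene, rose by 1.498 ± 0.35 (adjusted p = 0.000177). Of 8 follicle cell markers 2 rose and 2 fell, and the set was abundant (tj at 10707 and Fas3 at 31666), but RNA of other tissues was present too, with Uro of the Malpighian tubule at 899 and the gut trypsin gene alphaTry at 930.5. All 3 oenocyte markers and 9 of 12 muscle sheath markers fell and none rose, with medians of −3.27 and −1.49. Of 8 fat body markers 3 fell, 2 rose and Fbp1 was listed at 0, and of 7 gut and tubule markers 1 fell and none rose. All 5 tracheal markers were below 0 and 2 of the 4 tested fell, with serp at −2.91 ± 0.29 and btl at −1.90 ± 0.35. Of 6 hemocyte markers 1 fell, and of 8 germ line markers none passed the test. The part of these tissues in the results below was not tested, and in bulk RNA fewer cells of a type cannot be told apart from less RNA per cell.

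Of the 38 members, 31 had an adjusted p. In EGFR-activated cells 6 of them rose (GstD2, GstD3, GstD4, GstD9, GstS1 and Ugt58Fa), 5 fell (GstE6, Ugt36Ba, Ugt36Bc, Ugt35a and Ugt86Di) and 20 did not pass the test. The share called was 35.5% of the 31, and 35.5% of all 9409 genes tested were called as well (18.0% higher, 17.5% lower). As a set the members were therefore called no more often than the table as a whole. The median was 0.01 over the members and 0.01 over all genes. By class, the 5 Gst calls higher were 4 GstD genes and GstS1, the Gst call lower was a GstE gene, and 4 of 5 Ugt calls were lower. Differences between classes were not tested. The split of calls depended on the scaling. Once a trend on exonic length was subtracted, 2 members were higher and 9 lower of the 22 with a corrected value, where 28.3% of all genes were called. Centred on the ribosomal protein genes, whose median was 0.92, 0 were higher and 15 lower, where 57.2% of all genes were called. Centred on the median of all genes the split stayed at 6 and 5, beside 35.4% of all genes. Over the 22 members at 50 mean normalised counts or more it was 5 and 5, beside 39.2%, and adjustment over all genes with a p-value left 6 and 5, beside 24.6%.

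**Figure D1:**
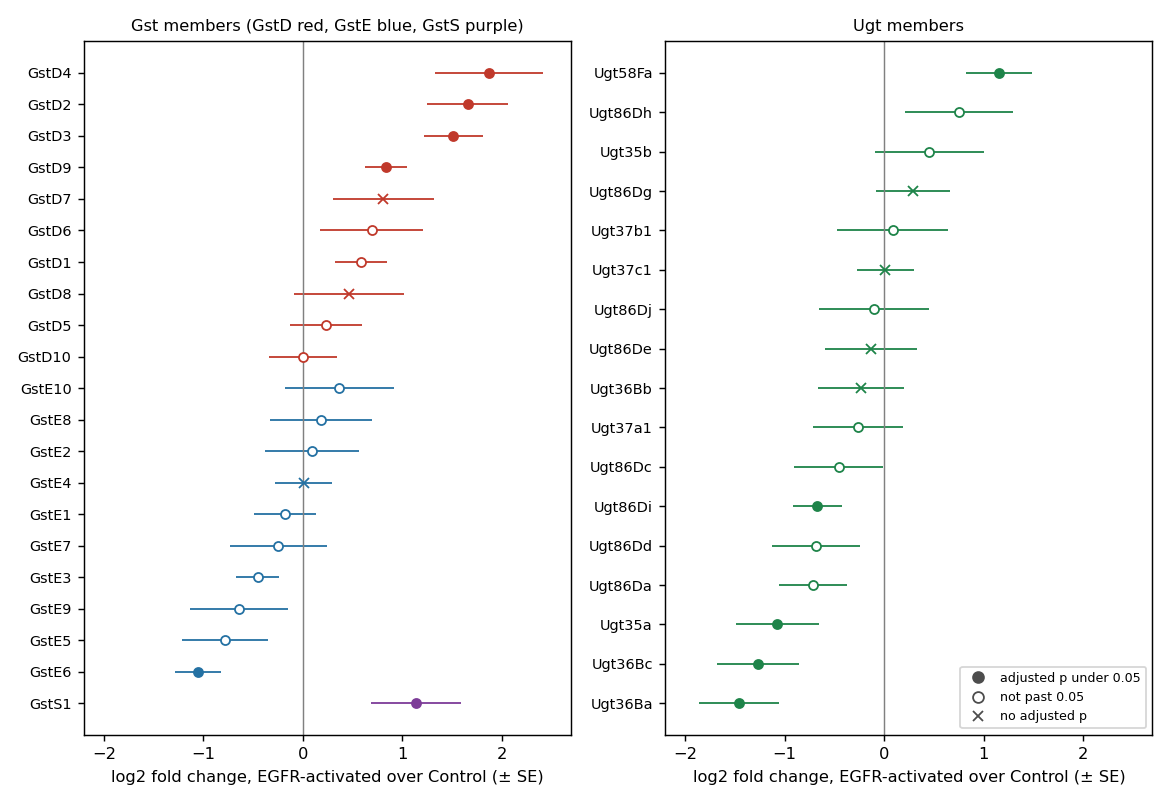
Log2 fold change of each of the 38 members, EGFR-activated over Control, with bars of ± 1 SE, from the authors' deposited table; the left panel holds the Gst genes and the right panel the Ugt genes. Filled circles mark an adjusted p under 0.05, open circles members that did not pass, and crosses members without an adjusted p. As deposited, all GstD points lie at or above 0 (3 of 10 after centring on the ribosomal protein genes), and the called Ugt points lie below 0 except Ugt58Fa.

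Mean levels of the members ran from 0.66 to 5821, while the highest gene of the table reached 592189. GstD1, the most abundant delta enzyme, known for its activity on DDT and used as a reporter of oxidative stress, had 3959 mean normalised counts, and GstS1 had 5821. Together these 2 genes held 19.5% and 28.6% of the summed level of the 38 members. Per kilobase of annotated exon, the highest levels were those of GstD1 (4697), GstD3 (2771), GstS1 (2559) and GstD9 (1159). Among Ugt genes the highest levels per kilobase were those of Ugt58Fa (707) and Ugt86Da (658). At the other end, 16 members had a mean under 50, and the 7 without an adjusted p had means of at most 6.97 (GstD8). By class, GstD genes made up 39.0% of the summed level, Ugt genes 23.4% and GstE genes 8.98%.

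**Figure D2:**
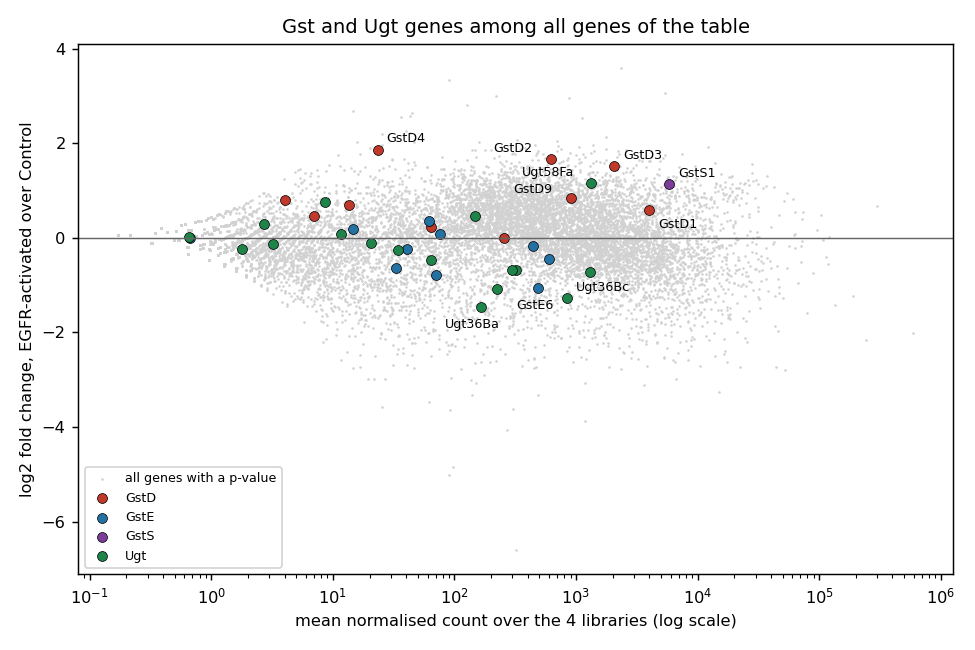
Log2 fold change (EGFR-activated over Control) against the mean normalised count over the 4 libraries (log axis) for all genes with a p-value in grey and the members coloured by class. The members lie within the cloud of all genes: the highest is GstD4 at 1.87 and the lowest Ugt36Ba at −1.46, while the highest of all genes reaches 3.59.

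The delta class carried most of the calls that were higher. Of 10 GstD genes, 8 had an adjusted p; 4 rose, 0 fell and 4 did not pass. GstD3, whose product lacks part of the N-terminus of the other delta enzymes, rose by 1.52 ± 0.29, a 2.86-fold change (adjusted p = 3.7e-06). GstD2 rose by 1.66 ± 0.41 (adjusted p = 0.000348) and GstD9 by 0.83 ± 0.21 (adjusted p = 0.000585). GstD4 rose by 1.87 ± 0.54 (adjusted p = 0.00307), the largest fold change among the members, from a mean of only 23.3. All of these lie on chromosome arm 3R.

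The reads of GstD4 in each library could be recovered from its mean, but the libraries were not matched to groups. They were 88, 28, 5 and 2 reads in the libraries with size factors of 1.46, 1.16, 0.786 and 0.773, or 60.3, 24.2, 6.36 and 2.59 normalised counts. The library with size factor 1.46 thus held most of the reads of this gene. In normalised counts the library with size factor 1.16 was also above the remaining libraries.

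GstD1 itself was at 0.59 ± 0.26 and did not pass (adjusted p = 0.0678), with a 95% interval from 0.07 to 1.10. Its value was −0.069 corrected for length and −0.33 centred on the ribosomal protein genes. The interval of GstD10 (0.01 ± 0.34, adjusted p = 0.991) ran from −0.66 to 0.68, and that of GstD5 (0.23 ± 0.36) from −0.48 to 0.94. GstD6, GstD7 and GstD8 were low, with means of 13.6, 4.05 and 6.97. As deposited, the fold change was above 0 in all 10 GstD genes and the median was 0.75, but only 3 of 6 length-corrected values were above 0 (median 0.039) and 3 of 10 after centring on the ribosomal protein genes (median −0.17). Of the called GstD genes, GstD3 still passed once corrected for length (0.81, adjusted p = 0.0249). GstD2 (0.95, adjusted p = 0.0654) and GstD9 (0.15, adjusted p = 0.663) did not, and GstD4 was too low to be corrected. Centred on the ribosomal protein genes, none of the 4 was called higher.

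The 10 GstE genes lie in a cluster on chromosome arm 2R, and 4 of them were above 0 and 6 below. As deposited, 9 had an adjusted p, and 0 rose, 1 fell and 8 did not pass. The share called was 11.1%, beside 35.5% of all genes. Corrected for length, 4 of 6 were called lower, and centred on the ribosomal protein genes 6 of the 9 with an adjusted p, with 0 higher in both. Of all genes, 28.3% and 57.2% were called in either direction under these scalings. GstE6 fell by 1.06 ± 0.23 (adjusted p = 5.5e-05) and was lower under every scaling tried, at −1.76 corrected for length and −1.98 after centring on the ribosomal protein genes. GstE3, the most abundant of the class at 604 mean normalised counts, was at −0.45 ± 0.21 (adjusted p = 0.0868), and it passed as lower once corrected for length (−1.15). GstE1, an enzyme that conjugates the lipid peroxidation product 4-hydroxynonenal, was at −0.18 ± 0.31, and it was called lower corrected for length (−0.84, adjusted p = 0.0282) and centred on the ribosomal protein genes (−1.10, adjusted p = 0.00105). The highest value was that of GstE10, at 0.37 ± 0.55 (adjusted p = 0.649), which was −0.13 corrected for length and −0.55 centred on the ribosomal protein genes. The median of the class was −0.21 as deposited and negative under each scaling.

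GstD and GstE genes make a close comparison because their transcripts are alike in length. Exonic lengths were 725 to 876 bp for GstD and 734 to 1134 bp for GstE genes. In these libraries fold changes followed gene length: the fitted trend was 0.70 at 750 bp, 0.18 at 2000 bp and −0.19 at 4000 bp. Among all genes of 725 to 1134 bp with an adjusted p, 378 rose and 98 fell of 1176. The median of GstD lay above that of GstE by 0.96 as deposited, and by 1.04 over the 6 and 6 genes with a length-corrected value. Centring on any gene set leaves this distance as it is. The distance was not tested, and the GstD and GstE values overlap.

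**Figure D3:**
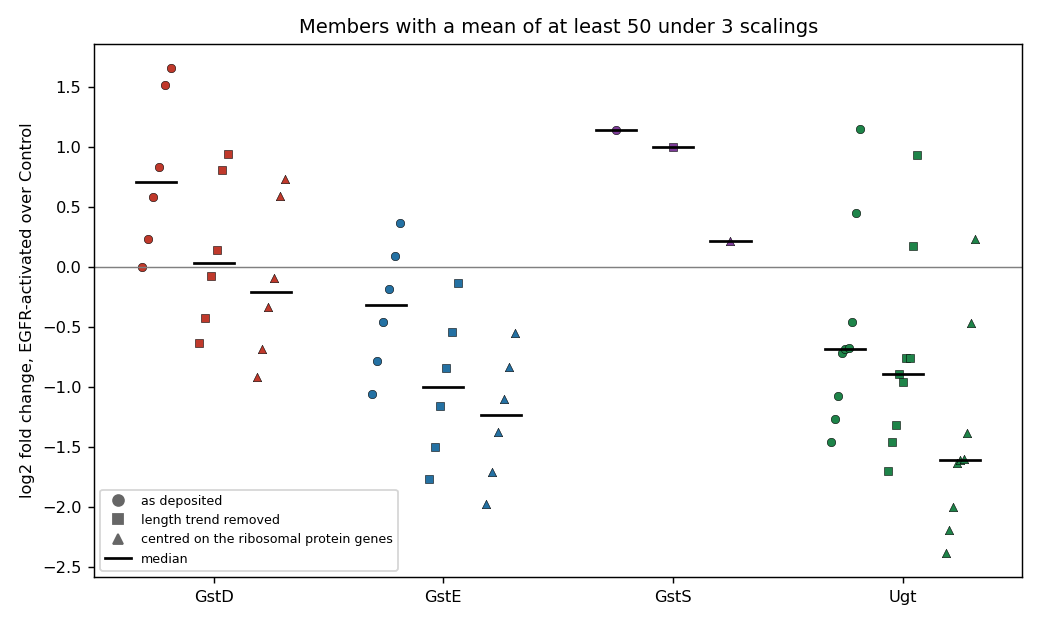
Log2 fold change (EGFR-activated over Control) of the 22 members at 50 mean normalised counts or more, by class, as deposited (circles), corrected for exonic length (squares) and centred on the ribosomal protein genes (triangles), with the median of each as a line. The GstD median falls from 0.71 as deposited to 0.039 corrected for length and to below 0 centred on the ribosomal protein genes, and the GstE median is negative under all 3.

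Position within the clusters was examined with the gene order of RefSeq. In the GstD cluster the order is GstD10, GstD9, GstD1, GstD2, GstD3, GstD4, GstD5, GstD6, GstD7 and GstD8. The 3 largest fold changes belonged to the neighbours GstD2, GstD3 and GstD4, and GstD5, next to GstD4, was among the lowest of the class with GstD10 at the other end of the row. The flanking genes Tim17a1 and CG34402 were at 0.35 ± 0.54 and −0.49 ± 0.48. In the GstE cluster the order is GstE10, then GstE1 to GstE9, with pseudogenes after GstE3. Its flanks both fell: Idgf5, which encodes a secreted growth factor of the chitinase family, by 1.44 ± 0.34 and imd, of the Imd immune pathway, by 0.94 ± 0.24 (adjusted p = 0.00022 and 0.000689). GstE9 shares 40 bp of exon with imd on the opposite strand, and GstE10 and GstE1 share 20 bp, in the BDGP6 annotation. No source used here says whether the counting used strand.

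**Figure D4:**
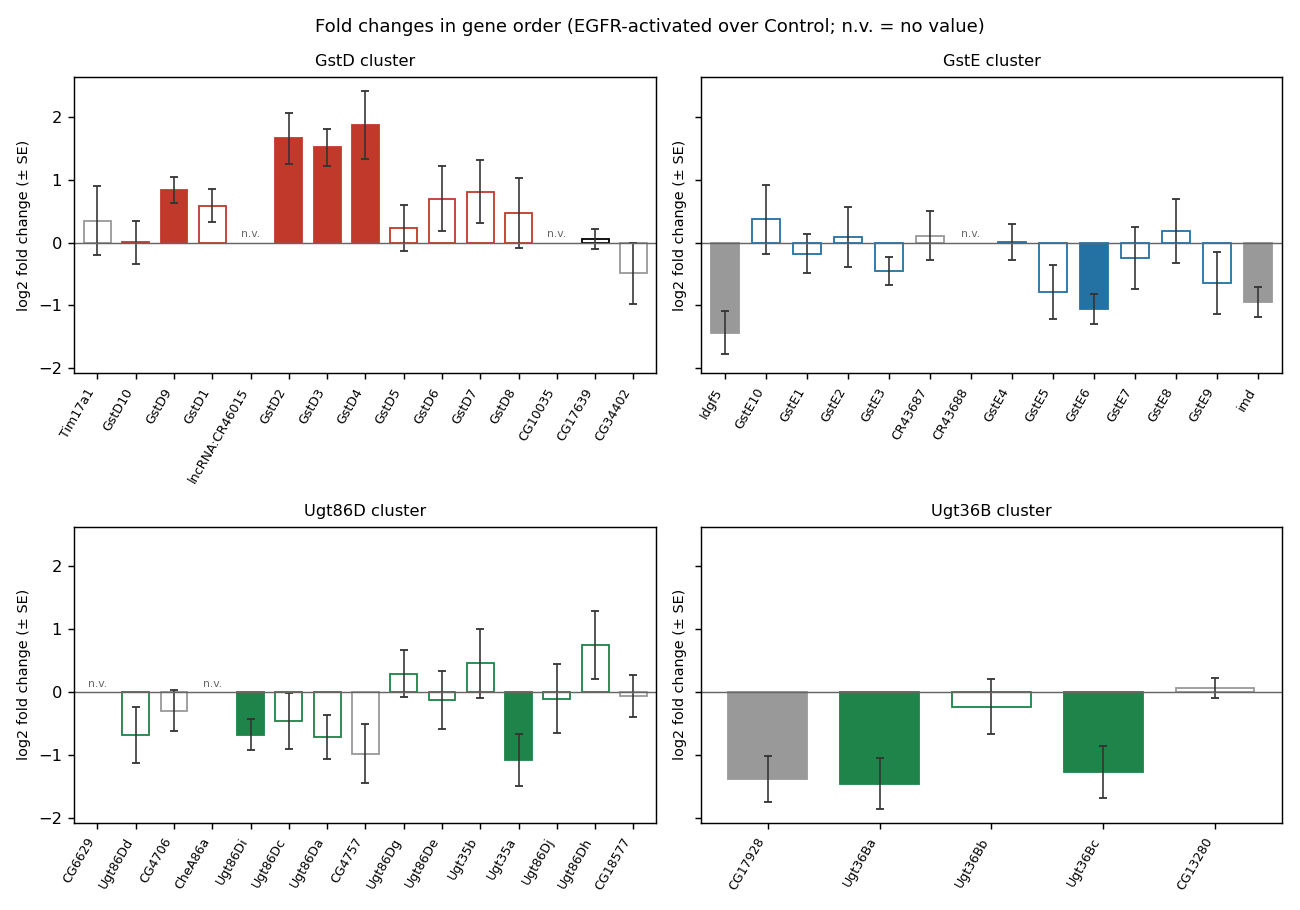
Log2 fold change (EGFR-activated over Control, bars ± 1 SE) of the genes in RefSeq order along the GstD, GstE, Ugt86D and Ugt36B clusters with a flanking gene on each side; filled bars have an adjusted p under 0.05, grey bars are genes of other families, and the black outline is CG17639. As deposited the 10 GstD members are above 0 (3 of 10 after centring on the ribosomal protein genes), and 6 of the 10 GstE members are below 0.

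Members of a cluster are close copies of each other, and alignments that were not unique were counted in a row apart from the genes. This row of alignments held 41.2% of all mean normalised counts and was lower in EGFR-activated cells, at −1.96 ± 0.36. Levels and fold changes of close copies are uncertain for this reason, and its part in these results was not tested.

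The sigma class has a single gene in flies. GstS1, an abundant enzyme of flight muscle that conjugates 4-hydroxynonenal and is related to prostaglandin D synthases, rose by 1.14 ± 0.46 (adjusted p = 0.037), a 2.21-fold change. It no longer passed once corrected for length (1.005, adjusted p = 0.0848) or centred on the ribosomal protein genes (0.22). Of the muscle sheath markers 9 of 12 fell, and the part of muscle RNA in the value of GstS1 was not tested.

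Of 17 Ugt genes, 13 had an adjusted p; 1 rose, 4 fell and 8 did not pass. The share called was 38.5%, beside 35.5% of all genes. Corrected for length, 1 was higher and 5 lower of 9, where 28.3% of all genes were called. Centred on the ribosomal protein genes 0 were higher and 8 lower of the 13, where 57.2% of all genes were called. As deposited, the median was −0.23, or −0.68 over the 9 at 50 mean normalised counts or more. Ugt36Ba fell by 1.46 ± 0.40 (adjusted p = 0.00187) and its neighbour Ugt36Bc by 1.27 ± 0.41 (adjusted p = 0.00852). Ugt35a, of the cluster that holds the Ugt86D genes, fell by 1.08 ± 0.42 (adjusted p = 0.0313), and Ugt86Di by 0.67 ± 0.25 (adjusted p = 0.0218). These 4 passed under each of the scalings tried. Ugt58Fa, on 2R and apart from these clusters, rose by 1.15 ± 0.33, a 2.23-fold change (adjusted p = 0.00292), and it passed once corrected for length (0.94) but not after centring on the ribosomal protein genes (0.24).

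Of the remaining Ugt genes, Ugt86Da, at 1313 mean normalised counts close to Ugt58Fa in level, was at −0.71 ± 0.34 (adjusted p = 0.0918). It was called lower corrected for length (−0.89, adjusted p = 0.0371) and centred on the ribosomal protein genes (−1.63, adjusted p = 7.98e-06). Ugt86Dd, linked to nicotine resistance in flies, was at −0.68 ± 0.44 (adjusted p = 0.231). Ugt35b, the neighbour of Ugt35a and known from the antenna, was at 0.45 ± 0.55 (adjusted p = 0.561), so the interval of its fold change, from −0.62 to 1.53, is wide. Along the Ugt86D cluster 7 of 10 members were below 0 and 3 above, with 2 called. In the Ugt36B cluster on 2L the third member, Ugt36Bb, had a mean of 1.79 and no adjusted p. The flanking CG17928 fell too, by 1.38 ± 0.37 (adjusted p = 0.00118).

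RefSeq names 70 fly genes Gst or Ugt, and all 70 were matched to a row of the table. Apart from the 38 members, 30 of them had a mean above 0 under another symbol, mostly a CG number, and 2 were listed at 0. They include every gene that RefSeq names GstO, GstT or GstZ, so the classes O and T are described here through them. A gene of these classes with a name of another form would be missed. Of these 30 relatives 25 had an adjusted p, and 6 rose, 6 fell and 13 did not pass, so that 48.0% were called beside 35.5% of all genes. Relatives named here were chosen after their values were seen.

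The theta gene CG1681 (GstT4) was the most abundant of the whole family, at 12491 mean normalised counts or 27.0% of the summed level of members and relatives, and it fell by 2.15 ± 0.28, a 4.45-fold change (adjusted p = 3e-12). Its level and its fall exceeded those of each member. The other 3 theta genes did not pass, with CG30005 (GstT2) at 0.71 ± 0.33, CG30000 (GstT1) at 0.68 ± 0.35 and CG1702 (GstT3) at 0.21 ± 0.35. Of 3 genes that RefSeq names GstO, CG6673 (GstO2) rose by 0.69 ± 0.26 (adjusted p = 0.0245). It no longer passed once corrected for length (0.43), and it was at −0.23 centred on the ribosomal protein genes. CG6662 (GstO1) and CG6776 (GstO3) did not pass, at 0.56 ± 0.39 and −0.18 ± 0.34. The zeta gene CG9362 (GstZ1), whose class isomerises maleylacetoacetate in tyrosine breakdown, rose by 1.12 ± 0.32 (adjusted p = 0.00234), and did not pass once corrected for length (0.497).

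Of the epsilon genes, 4 lie outside the main cluster. CG4688 (GstE14), known as noppera-bo and needed for ecdysone synthesis, rose by 2.27 ± 0.47, a 4.83-fold change (adjusted p = 1.52e-05), and it was still called higher relative to the ribosomal protein genes (1.35). Its reads were 125, 66, 6 and 8 in the libraries with size factors of 1.46, 1.16, 0.786 and 0.773, which again are not tied to groups here. CG11784 (GstE13) rose by 1.16 ± 0.22 and CG16936 (GstE12) by 0.93 ± 0.26, while CG5224 (GstE11) fell by 0.77 ± 0.31. CG16936 did not pass once corrected for length (0.56). Centred on the ribosomal protein genes, neither CG11784 (0.24) nor CG16936 (0.012) passed, which left CG4688 as the only one of the 4 called higher. As deposited, 3 of these 4 rose, against 0 of the 9 tested genes of the cluster, a difference that was not tested. Over all tested genes 18.0% were higher, and of the 1176 of GstD and GstE length 378 rose and 98 fell.

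Among the 16 Ugt relatives 13 had an adjusted p; 1 rose and 4 fell, and the other 8 missed the threshold, as many of each as among the 17 Ugt members. CG10178 (Ugt301D1) had the highest level of all Ugt genes, at 4721 mean normalised counts, and fell by 1.61 ± 0.23 (adjusted p = 2.34e-10). CG15661 (Ugt49C1) fell by 1.49 ± 0.33, and CG4302 (Ugt49B1) and CG30438 (Ugt50B3) by 0.95 ± 0.40 and 0.95 ± 0.39. The gene that rose was CG17322 (Ugt36E1), at 0.88 ± 0.36 (adjusted p = 0.0446), or −0.042 centred on the ribosomal protein genes. Over members and relatives together 2 of 26 tested Ugt genes rose and 8 fell, and 10 of 30 tested Gst genes rose and 3 fell, beside 18.0% higher and 17.5% lower over all genes. Their median exonic lengths were 881 bp for Gst and 1764 bp for Ugt genes, and of the 1176 tested genes of GstD and GstE length 378 rose and 98 fell. Whether the families differ was not tested.

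**Figure D5:**
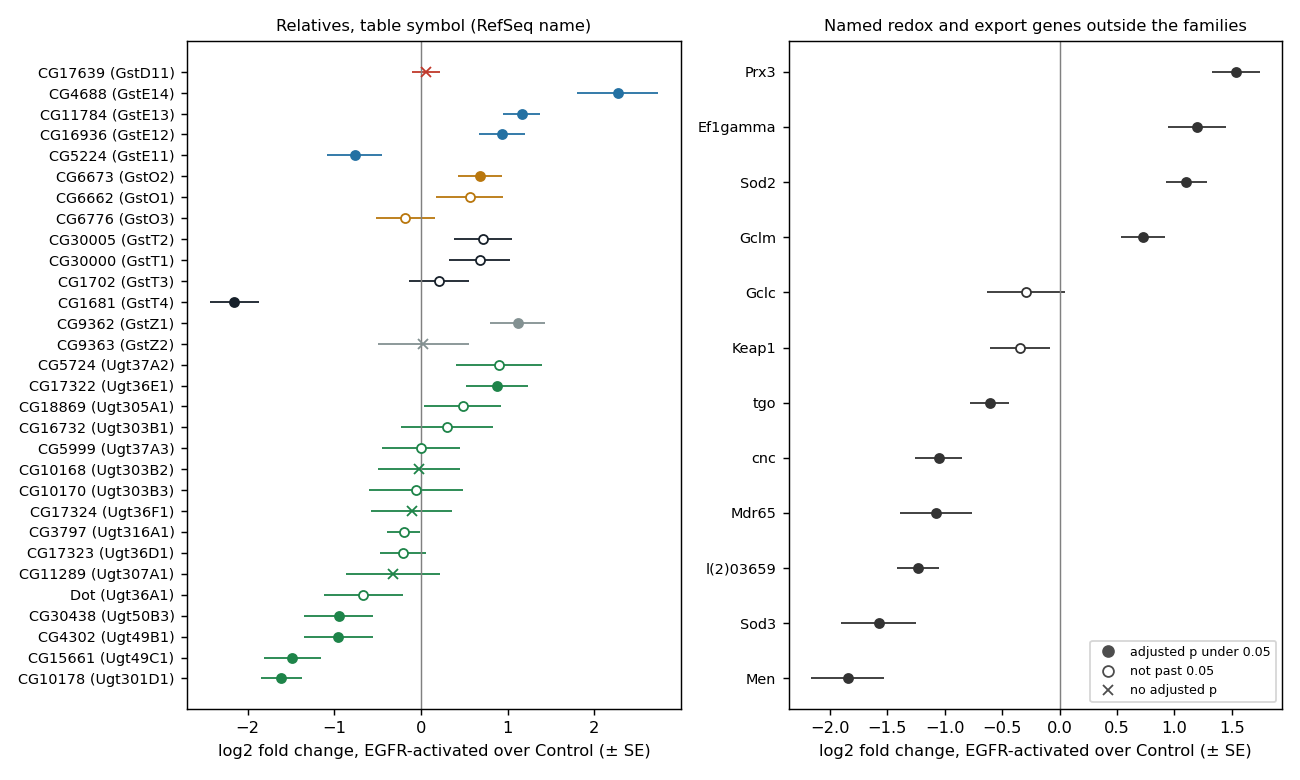
Log2 fold change (EGFR-activated over Control, bars ± 1 SE) of the 30 genes that RefSeq names Gst or Ugt but the table lists under another symbol (left, with the RefSeq name in brackets) and of 12 named redox and export genes outside the families (right). CG1681 at −2.15 and CG4688 at 2.27 are the extremes of the left panel, and Prx3 at 1.54 and Men at −1.84 those of the right.

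Genes that act beside these enzymes were taken from a list of glutathione synthesis, the Keap1 and CncC system, peroxidases, NADPH supply, sulfotransferases and export pumps. Of 53 measured genes 46 had an adjusted p; 9 rose, 7 fell and 30 did not pass, or 34.8% called against 35.5% of all genes. For the regulators, cnc, which encodes CncC and other isoforms, fell by 1.05 ± 0.20 (adjusted p = 4.01e-06) at a mean level of 13498; corrected for length it was at −0.57 (adjusted p = 0.0228). The authors' deposited table of factors gives cnc at −0.96 by Cuffdiff (adjusted p = 0.0249). Keap1 was at −0.34 ± 0.26 (adjusted p = 0.321). Listed with the Keap1 and CncC system, tgo fell by 0.61 ± 0.17 (adjusted p = 0.00188). Its Cuffdiff value of −0.64 did not pass (adjusted p = 0.121). From the same group, maf-S was at 0.10 ± 0.29 (adjusted p = 0.828).

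For glutathione synthesis, Gclm, the modifier subunit of glutamate-cysteine ligase, rose by 0.73 ± 0.20 (adjusted p = 0.00131), but it was at −0.19 centred on the ribosomal protein genes. Gclc, the catalytic subunit, was at −0.29 ± 0.34 (adjusted p = 0.543). Of 13 tested thioredoxin, peroxiredoxin, dismutase and catalase genes 6 rose and 2 fell, beside 18.0% higher and 17.5% lower over all genes. The median exonic length of this group was 1189 bp, and of 1176 tested genes of 725 to 1134 bp 378 rose and 98 fell. The part of length in this count was not tested. The mitochondrial peroxiredoxin gene Prx3 rose by 1.54 ± 0.21 and passed under each scaling tried, at 0.98 corrected for length and 0.62 centred on the ribosomal protein genes. The mitochondrial dismutase gene Sod2 rose by 1.10 ± 0.18 (0.54 corrected for length), and the extracellular dismutase gene Sod3 fell by 1.58 ± 0.33. Ef1gamma, a translation elongation factor with a domain like that of glutathione transferases, rose by 1.197 ± 0.25. Sod2 and Ef1gamma also passed corrected for length and not after centring on the ribosomal protein genes.

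For NADPH, which keeps glutathione reduced, the malic enzyme gene Men fell by 1.84 ± 0.32 (adjusted p = 1.29e-07), and the other 3 genes of this group did not pass. Of 7 transporter genes for conjugates and drugs, 2 fell and 0 rose, or 28.6% called beside 35.5% of all genes. Those that fell were Mdr65 at −1.08 ± 0.31 and a gene of the ABC transporter family at −1.23 ± 0.19. None of the 2 tested sulfotransferase genes passed.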

How the data were processed

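RNA of 4 libraries, 2 per group, was compared. Per the submitters' processing notes, the authors used the build BDGP5 and the tools DESeq2 1.2.10, HTSeq 0.6.1 and TopHat2 2.0.10. The authors' deposited table gives, per the file headers, a mean normalised signal (counts scaled by size factors), a log2 fold change and its standard error, then a score (the Wald statistic), and p-values before and after adjustment. The authors' DESeq2 version shrinks fold changes by default, so those of genes with few reads may be understated. No source used here says whether the default was kept. CG17639, with 1 read in the library with size factor 1.46 and 0 in the others, was given 0.058 ± 0.16. GstD7, with 18, 3, 0 and 1 reads, was given 0.81 ± 0.51. The part of shrinkage in these values was not tested. The authors' second deposited table gives, per the file headers, log2 fold changes and adjusted p-values of DESeq2 and Cuffdiff. Columns of other samples numbered 0.

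The 5 rows that name no gene (47.0% of summed means) were left out. The deposited adjusted p-values were taken at a threshold of 0.05, because no table of counts per library was in use; the edgeR fit planned for such counts was not run. The submitters call the replicates biological; nothing more is said of their source, and p-values measure the spread between these libraries.

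Members and lists were chosen with earlier results of these data known. Of 107 list entries 19 were not in the table and 31 are genes that RefSeq names Gst or Ugt. Members named were those that passed at 50 mean normalised counts or more, and in each class the most abundant and the extremes of fold change; GstD5 to GstD8, GstE1, GstE9, Ugt86Da, Ugt86Dd, Ugt35b, Ugt36Bb and the members whose reads are given were added after their values were seen.

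RefSeq Release 6 gave names and gene order and the BDGP6 annotation (Ensembl 115) exonic union lengths, for 98.7% of the 7887 genes at 50 or more; the builds differ, so coordinates were left out. Genes outside the families were named where they passed, up to 10 with the smallest adjusted p, plus Keap1, cnc and Gclc. Of the same list, maf-S was added after its value was seen. A lowess curve of fold change on log2 length (span 0.3, statsmodels 0.14.6) was subtracted and p-values recomputed as normal tests of fold change over its standard error with Benjamini-Hochberg adjustment. Centred values were treated likewise. Intervals are 95% Wald intervals. Size factors came from the 4 lowest means shared by at least 100 genes, each taken as 1 read in 1 library and refined by least squares; whole reads adding up to a mean within 1e-08 had a single solution in 21 of 21 members with a mean under 100. Both steps were tested on simulated data, but the recovery of reads only at means below those of GstE10, GstD5, GstE5 and CG4688. Python 3.11.15 was used.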

Additional observations from a re-analysis of the deposited data

How the results depend on the processing

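Corrected for length (7782 genes), 2 members were higher and 9 lower, against 6 and 5 as deposited; centred on the ribosomal protein genes, 0 and 15. With the relatives added there were 12 and 11, and at a threshold of 0.01 there were 3 lower. Of the list outside the families 4 were higher corrected for length; the ribosomal centring gave 1 higher and 29 lower, against 9 and 7 as deposited. The medians of GstD, GstE and Ugt (0.75, −0.21 and −0.23) moved to 0.039, −0.997 and −0.89 corrected for length and to −0.17, −1.13 and −1.15 centred on the ribosomal protein genes; at a mean of at least 50 that of Ugt was −0.68. Signs were compared for the genes named by rule and the called relatives. Centred on the ribosomal protein genes the values of GstD1 (−0.33), GstD9 (−0.085), GstD10 (−0.91), GstE10 (−0.55), CG17322 (−0.042), CG6673 (−0.23) and Gclm (−0.19) changed sign. So did GstD1 (−0.069), GstD10 (−0.63) and GstE10 (−0.13) corrected for length, and GstD10 (−0.0030) centred on the median of all genes. Among other members, GstD5 (−0.68), GstD6 (−0.22), GstD7 (−0.11), GstD8 (−0.45) and Ugt35b (−0.46) also changed sign centred on the ribosomal protein genes. GstD5 did so corrected for length as well (−0.42). Correction and centring shift each value by construction. Centring on the median of all genes (0.01), a threshold of 0.1 and adjustment over all 12650 genes with a p-value left each count within 1.5 times. No paired analysis was possible because the tables hold no values per library; for the same reason leaving out a replicate, DESeq2 against edgeR and a low-count filter were not run. Protein identity and promoter motifs were not run because no sequence table was used here. The 7 members without an adjusted p had means of at most 6.97, and the lowest mean with one was 7.73.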

Other observations

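Whole reads per library could be recovered for the 21 members with a mean under 100, for libraries that are not tied to groups here and are named by their size factors of 1.46, 1.16, 0.786 and 0.773, the order of all values below. GstE10 had 150 reads in the library with size factor 1.16, against 30, 43 and 33 in the others, or 20.5, 129.5, 54.7 and 42.7 normalised counts. Ugt86Dh had 4, 29, 3 and 2 reads and Ugt86Dg 0, 11, 0 and 1, so the same library held most of the reads of both. In normalised counts that library was the highest in 9 of the 21 members and the library with size factor 1.46 in 6.

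GstD7, with 18, 3, 0 and 1 reads, had most of its reads in the library with size factor 1.46, as GstD4 did. GstD6 had 28, 20, 8 and 6 reads, and GstD5 had 101, 81, 38 and 52, or 69.2, 69.9, 48.3 and 67.3 normalised counts, which are close to each other. GstE5 had 55, 68, 94 and 52 reads and was highest, at 119.6 normalised counts, in the library with size factor 0.786. GstE4 had 2, 0, 0 and 1 reads and Ugt37c1 2, 0, 1 and 0, the lowest of the members.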
